A study of Mus musculus with 6 samples.

Results

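Cells of mProx24, a line of kidney proximal tubular cells from C57B6 mice, received rapamycin and all 3 stimuli of a model of the diabetic kidney. Their RNA was compared with that of cells under the same stimuli without the drug. Both samples were chosen by their labels, and they are 2 of the 6 arrays of the series, 1 array per condition. The tested cells received the triple stimuli plus rapamycin at 0.4 µg/ml for 12 h before palmitate. The cells they were set against received the triple stimuli alone, namely 1% oxygen for 12 h, high glucose, and palmitate at 150 µM for 9 h bound to 0.15% bovine serum albumin. The remaining arrays were high glucose, high FFAs (free fatty acids), hypoxia (labelled 1% NG PBS) and control (labelled 20% NG PBS). All cells grew in Dulbecco's modified Eagle's medium with fetal calf serum. The labels state neither how much glucose was used nor the solvent of rapamycin. They also do not state whether rapamycin stayed on during the palmitate step. The labels do not name an array of cells given rapamycin without the stimuli, so the drug was seen against the triple stimuli only.

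Rapamycin binds the small protein FKBP12, made from Fkbp1a, and the pair blocks mTORC1, a kinase complex built around Mtor and Rptor that reads amino acids, insulin and energy. Active mTORC1 favours growth: it raises translation, ribosome building, lipid and nucleotide synthesis and the output of the transcription factors ATF4, HIF1 and SREBP, and it holds back autophagy. In the proximal tubule mTORC1 activity is known to be high in diabetes, where the cells take up large amounts of glucose and fatty acids and are short of oxygen.

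Promoters are shown first for the 2 target lists with the most negative medians, targets of ATF4 and targets of HIF outside glycolysis. Each list was assembled around 1 transcription factor. Shown are the members with the most negative difference among those with a matching motif. Aldh1l2, Cth, Psph and Ddit4 had more negative differences than the ATF4 targets shown, and Car12 than Egln3 and Hilpda. No match was available to show for these genes. The sequences are RefSeq promoter stretches of mouse build GRCm38.p6, 5′ to 3′ on the strand of the gene. Each has 100 bases within the 250 bases before the start of the gene. Capitals mark the ATF4 element TGATGNAA in the ATF4 targets and the hypoxia response core ACGTG in the HIF targets, searched on both strands, so that a match on the other strand reads reversed. Slc7a11 lies on the minus strand at chr3:50443626-50443725, Atf3 on the minus strand at chr1:191183390-191183489 and Pycr1 on the minus strand at chr11:120643798-120643897. Ero1a lies on the minus strand at chr14:45318584-45318683, Egln3 on the minus strand at chr12:54204025-54204124 and Hilpda on the plus strand at chr6:29272526-29272625.
Slc7a11: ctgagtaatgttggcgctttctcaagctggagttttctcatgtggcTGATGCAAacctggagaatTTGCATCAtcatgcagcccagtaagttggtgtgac
Atf3: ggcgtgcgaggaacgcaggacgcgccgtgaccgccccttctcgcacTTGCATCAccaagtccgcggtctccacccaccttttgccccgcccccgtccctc
Pycr1: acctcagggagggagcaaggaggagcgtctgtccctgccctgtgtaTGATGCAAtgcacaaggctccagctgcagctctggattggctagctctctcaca
Ero1a: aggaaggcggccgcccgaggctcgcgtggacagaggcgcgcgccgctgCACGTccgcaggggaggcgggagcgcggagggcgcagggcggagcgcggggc
Egln3: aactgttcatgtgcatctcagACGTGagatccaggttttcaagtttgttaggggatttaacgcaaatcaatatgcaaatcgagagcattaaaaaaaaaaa
Hilpda: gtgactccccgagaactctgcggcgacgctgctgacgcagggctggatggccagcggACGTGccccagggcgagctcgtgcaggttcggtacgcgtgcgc

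The ATF4 element was found in 9 of 31 ATF4 targets with a promoter in the table (29.0%) and in 1056 of all 27025 genes in it (3.91%). The hypoxia core was found in 14 of 19 HIF targets outside glycolysis (73.7%), in 9 of 20 glycolysis genes (45%) and in 18.5% of all genes. It was also found in 10 of 31 ATF4 targets (32.3%) and in 14 of 27 lysosome genes (51.9%). The median difference of the lysosome genes with rapamycin was 0.01. Each target list was assembled around its factor. A share of its motif above that of all genes therefore says nothing about rapamycin. A match is a description of the letters and not a sign of binding.

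Each array held 59305 spots that were not controls, of which 42.1% were well above background with rapamycin and 40.3% without it, by the scanner software's own call, and 0 were saturated on either. The level of a gene is given throughout as log2 signal above the 75th percentile of its array, so that 0 is that percentile, and a difference is the level with rapamycin minus the level without it. Of 34518 gene names, 15430 were well above background on both arrays and are called measured, and 10604 of these had a mean level of at least 0 and are called bright. With 1 array per condition there is no replicate spread, and no test was made. The spread that the arrays do give is technical: spots of the same probe differed by a median SD of 0.067 (239 probes with several spots), 2 or more bright probes of the same gene spanned a median of 0.096 (2011 genes), and the scanner software's own error of a bright difference had a median of 0.20.

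The cells expressed 7 of 16 proximal tubule markers above background on both arrays. Lrp2, the endocytic receptor megalin, had a level of 2.03 with rapamycin and 2.43 without, Aqp1, the water channel, 1.79 and 2.27, and Havcr1, the injury marker KIM-1, was among the 7. Hnf4a, Slc34a1 and Slc5a2, which define the mature tubule, were not measured. Of markers of other cells, 0 of the 6 fibroblast and pericyte genes on the arrays were measured, 1 of 6 for podocytes, 1 of 6 for endothelium, 3 of 6 for macrophages, 3 of 5 for T cells and 2 of 11 for the distal nephron. The common leukocyte antigen gene Ptprc was not well above background on either array. In RNA from whole cultures, fewer cells of a type and less RNA per cell cannot be told apart.

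The RNA of the drug's receptor and of its target was present on both arrays. Fkbp1a had a level of 7.25 with rapamycin and 7.44 without it, Rptor 2.39 and 2.40, and Mtor 0.16 and 0.62. The Mtor difference of -0.46 was not shared by its other measured probe, at -0.03. Of 37 measured components and regulators of the mTOR complexes, 20 were below 0 and 17 above it, with a median of -0.01, and only Ddit4, an inhibitor of mTORC1, was at least 1.5-fold apart. Eif4ebp1, which encodes a translation repressor that mTORC1 phosphorylates, had -0.47 from a spot in the first 64 rows, and Prr5, a subunit of mTORC2, -0.43. The drug acts on the activity of the complex, which arrays of RNA do not measure.

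Few genes differed by 2-fold. Of the 15430 measured genes, 58 were at least 2-fold higher with rapamycin (0.376%) and 88 at least 2-fold lower (0.57%). Among the bright genes 8 were at least 2-fold higher (0.0754%) and 14 lower (0.132%). At 1.5-fold the counts were 301 higher (1.95%) and 393 lower (2.55%) over all measured genes, and the bright counts were 64 higher (0.604%) and 135 lower (1.27%). The differences of the bright genes had an SD of 0.22 over genes and lay between -0.40 and 0.30 for the middle 90% of them.

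**Figure D1:**
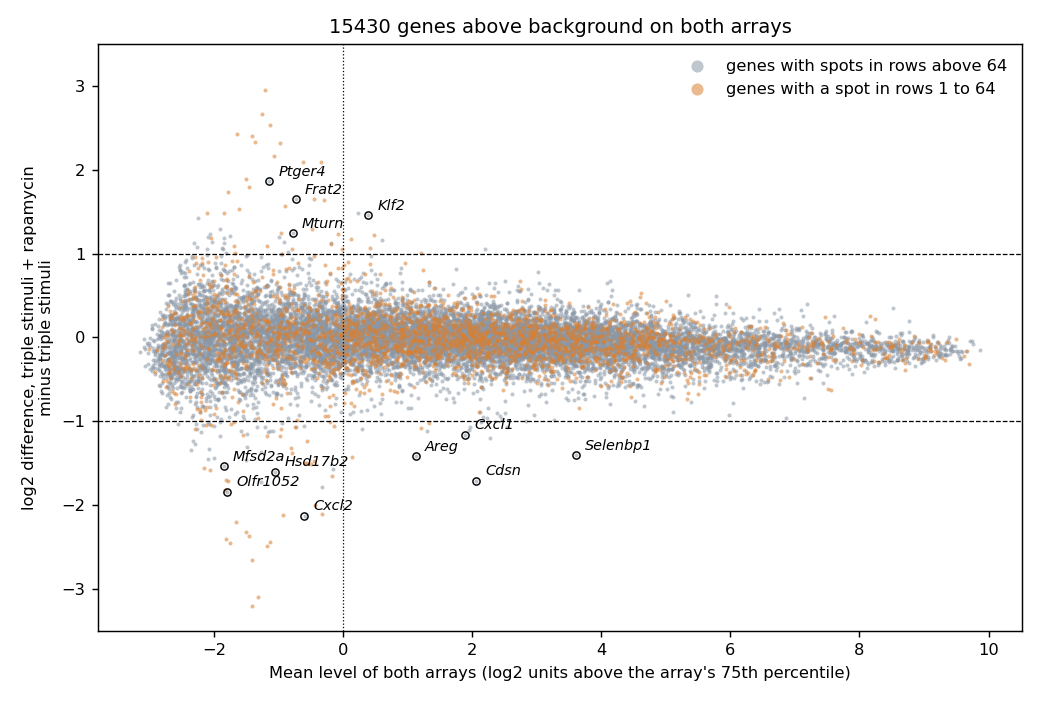
Each point is 1 of the 15430 measured genes. The horizontal axis is the mean level of both arrays and the vertical axis the log2 difference, triple stimuli with rapamycin minus triple stimuli. Dashed lines mark 2-fold and the dotted line the 75th percentile. Most differences beyond 2 in size were of dimmer genes with a spot in rows 1 to 64 (orange), and the brightest genes lay slightly below 0.

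The figure of levels and differences shows a drift with signal. The median difference was 0.01 for genes of level 0 to 2, -0.04 for level 2 to 4, -0.09 for level 4 to 6, -0.11 for level 6 to 8 and -0.14 for level 8 and above. Of the 349 genes in that highest band 92.8% were below 0, against 48.7% of the 3772 in the lowest bright band. Most of the lists below are therefore given beside these band medians or beside their medians after quantile normalization of the arrays, which takes such a drift out. The bands of a list are those of its median level.

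Position on the array mattered for dim genes. In the first 64 of the 384 rows of spots, 8.86% of the dimmer measured genes were at least 2-fold apart in either direction, and in the other rows between 0.848% and 2.05%. For bright genes the share was 0.391% in the first 64 rows and between 0.111% and 0.277% elsewhere. Of the 58 genes that were 2-fold higher 33 had a spot in those rows, as had 41 of the 88 that were lower, although the rows held 16.5% of all measured genes. Genes named below that have a spot there are marked as such, and the part of the position in their differences was not tested.

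**Figure D2:**
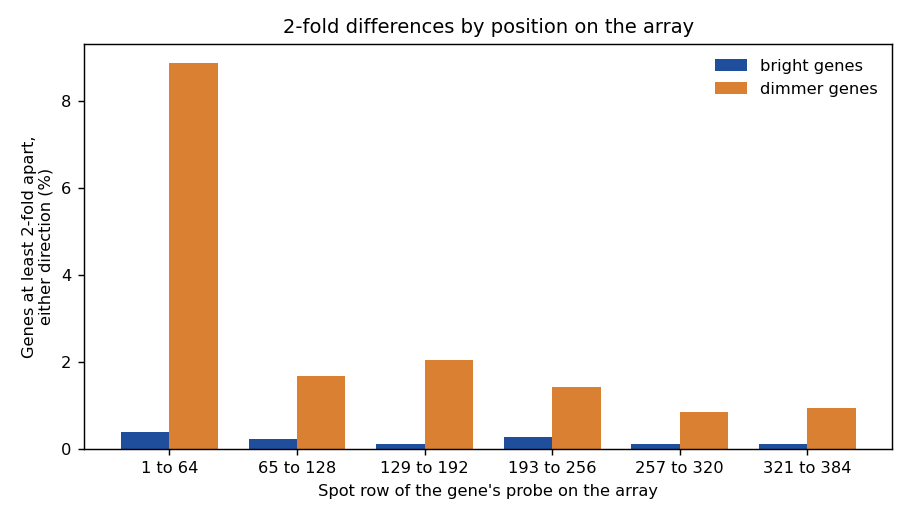
Bars give the percentage of measured genes at least 2-fold apart in either direction, for bright and dimmer genes, by the spot row of the gene's probe in 6 bands of 64 rows. Dimmer genes reach 8.86% in rows 1 to 64 and stay at or below 2.05% elsewhere.

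Among bright genes the most negative difference was that of Cdsn, which encodes corneodesmosin, an adhesion protein of epithelial surfaces (probe at chr17:35693799-35693858, build mm9, as are all probe positions below). Its level was 1.20 with rapamycin and 2.91 without, 1.74 in hypoxia and 1.04 in control, a 3.27-fold lower signal with the drug. Areg, which encodes the EGF receptor ligand amphiregulin (chr5:91570090-91570149), was at 0.42 with rapamycin and 1.84 without, 2.67-fold lower, and at -1.92 in hypoxia and -1.38 in control. So the rapamycin value of Cdsn came close to that of control, and the value of Areg lay between those of triple stimuli and control.

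Selenbp1, which encodes a selenium-binding protein that oxidises methanethiol (chr3:94748621-94748680), was at 2.90 with rapamycin and 4.30 without, 2.65-fold lower. It was highest in hypoxia alone, at 5.62, against 2.31 in control. Ero1a, the oxidase that drives disulfide formation in the endoplasmic reticulum (chr14:45904192-45904251), was at 0.75 with rapamycin and 1.86 without, 2.17-fold lower, and at 1.52 in hypoxia and -1.13 in control. Both genes were more than 2-fold higher in hypoxia than in control, and under rapamycin both stayed above their control level.

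Cxcl1, a chemokine that draws neutrophils (chr5:91321845-91321904), was at 1.31 with rapamycin and 2.47 without, 2.24-fold lower. Its neighbour Cxcl2 (chr5:91334534-91334593), a chemokine with the same receptor, was dimmer and further apart, at -1.66 with rapamycin and 0.46 without, 4.37-fold lower. Cxcl1 was at 0.34 in hypoxia and 1.04 in control, and Cxcl2 was not well above background in hypoxia and at -2.01 in control. The 2 genes thus were higher in triple stimuli than on the hypoxia and control arrays, and the rapamycin array came near control.

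Aldh1l2, a mitochondrial enzyme of folate metabolism and a target of ATF4 (chr10:82950571-82950630), was at 1.63 with rapamycin and 2.64 without, 2.02-fold lower, with 1.95 in hypoxia and 0.19 in control. Tfrc, the transferrin receptor that imports iron, had a difference of -1.02 from a spot in the first 64 rows and of -1.15 from its other probe. Stmn4, a stathmin that binds tubulin, had -1.07, and -1.05 from its other probe. For these last genes separate probes thus gave a difference of similar size.

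Of the remaining bright genes at least 2-fold lower, 3 had another probe with a smaller difference. Anp32a, a histone-binding phosphatase inhibitor, had -1.20, and -0.40 from its other probe, and Reep6, which shapes membranes of the endoplasmic reticulum, had -1.07 and -0.46. Polr3f, a subunit of RNA polymerase III, had -1.43 from a spot in the first 64 rows and -0.08 from its other probe. Slc14a1, a urea transporter, had -1.11 and Clec4d, a C-type lectin receptor, -1.10, each from 1 probe in rows above 64. Gsta2, a glutathione transferase with a spot in the first 64 rows, had -1.08. For Polr3f the brightest probe was alone in its call.

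Klf2, a transcription factor of the Krüppel family known for keeping cells quiescent (chr8:74845137-74845196), was the named gene with the most positive bright difference. Its level was 1.12 with rapamycin and -0.34 without, 2.75-fold higher, with -0.44 in hypoxia and 0.21 in control, so the rapamycin array was above all 3. Gpr146, an orphan receptor linked to cholesterol levels, was at 1.09 with rapamycin and -0.14 without. It was at 1.59 in hypoxia and -0.90 in control, so its rapamycin value was below that of hypoxia. Nup98, a nucleoporin, was at 0.71 with rapamycin and -0.46 without, Abi1, an actin regulator, at 0.96 and -0.11, and Mastl, a mitotic kinase, at 1.71 and 0.71. All 4 of these had a spot in the first 64 rows. Mettl27, a predicted methyltransferase, had 1.05 and its other probe -1.19, so its direction is not settled.

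**Figure D3:**
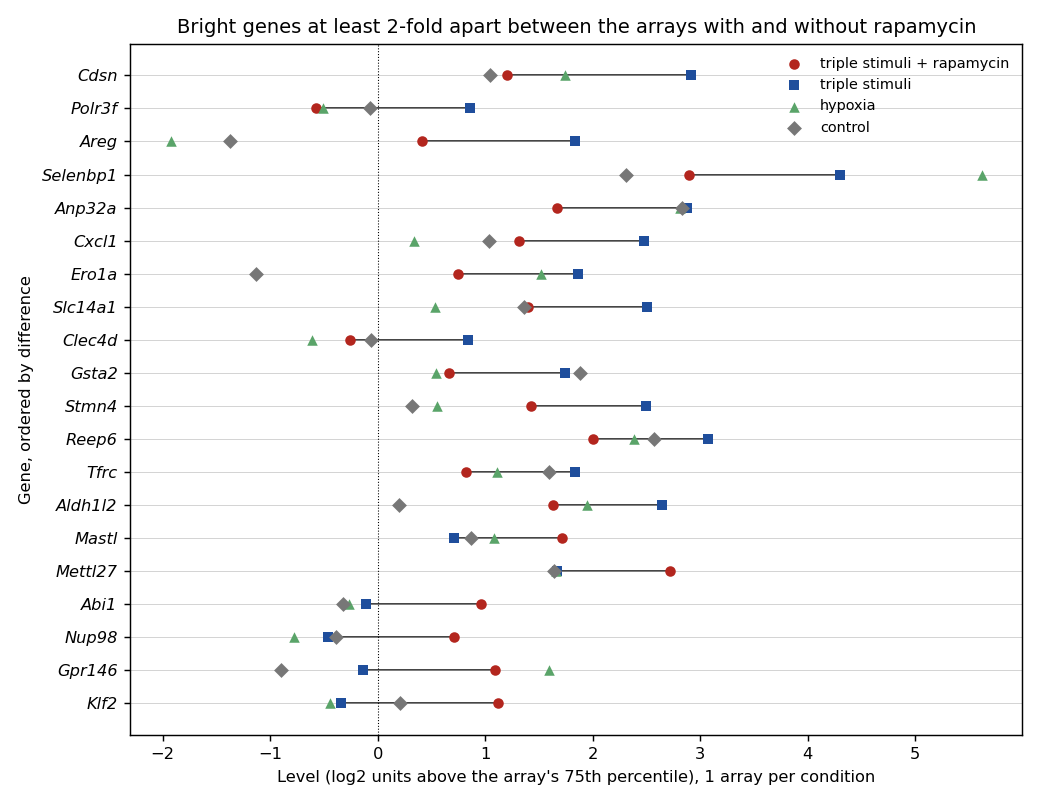
Levels of the 20 named bright genes at least 2-fold apart, 1 array per condition; the horizontal axis is log2 signal above the array's 75th percentile and each row is a gene. Lines join triple stimuli with rapamycin (red circles) and triple stimuli (blue squares); green triangles are hypoxia and grey diamonds control. Areg, Ero1a and Aldh1l2 under rapamycin lie between triple stimuli and control.

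Among dimmer genes with spots only in rows above 64, the most negative differences after Cxcl2 were those of Olfr1052, an olfactory receptor (-1.84), Hsd17b2, which inactivates oestradiol and testosterone (-1.60), Mfsd2a, a transporter of lysophospholipids (-1.53), and Rgcc, a regulator of the cell cycle (-1.46). Hsd17b2 was at -1.85 with rapamycin and -0.25 without, and at 0.00 in hypoxia against -3.24 in control. The most positive were Ptger4, a receptor for prostaglandin E2 (1.86), Frat2, an activator of WNT signalling (1.65), Ifit3b, an interferon-induced protein (1.29), Mturn (1.25) and Klhl24, a ubiquitin ligase adaptor (1.21). Ptger4 was at -0.21 with rapamycin and -2.08 without, and at -2.23 in hypoxia and -1.74 in control, so its rapamycin value was above the other 3. Frat2 gave 0.03 from its other probe.

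The direction of bright calls at 1.5-fold could be checked within the arrays where a gene had another bright probe. Of the bright genes at least 2-fold apart, only 1 lower gene, Stmn4, and 0 higher genes had such a probe. The dimmer other probes of Polr3f, Anp32a, Reep6 and Mettl27 given above were outside this check, so it says little about the 2-fold calls. Of 22 genes at least 1.5-fold lower with a second bright probe, that probe was below 0 for 21 and at least 1.5-fold lower for 16, with a median of -0.73 for the first probe and -0.70 for the other. Of 7 genes at least 1.5-fold higher, the second probe was above 0 for 7 and at least 1.5-fold higher for 4. Over all 2011 bright genes with such a probe, 60.8% of the second probes were below 0. Probes of the same gene share the RNA sample and the array, so their likeness bears on the measurement and not on the treatment.

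The members of 30 gene lists are shown as groups in what follows. Over all measured genes the median difference was -0.04 and 57.1% were below 0, and over the bright genes it was -0.05 with 60.2% below 0.

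**Figure D4:**
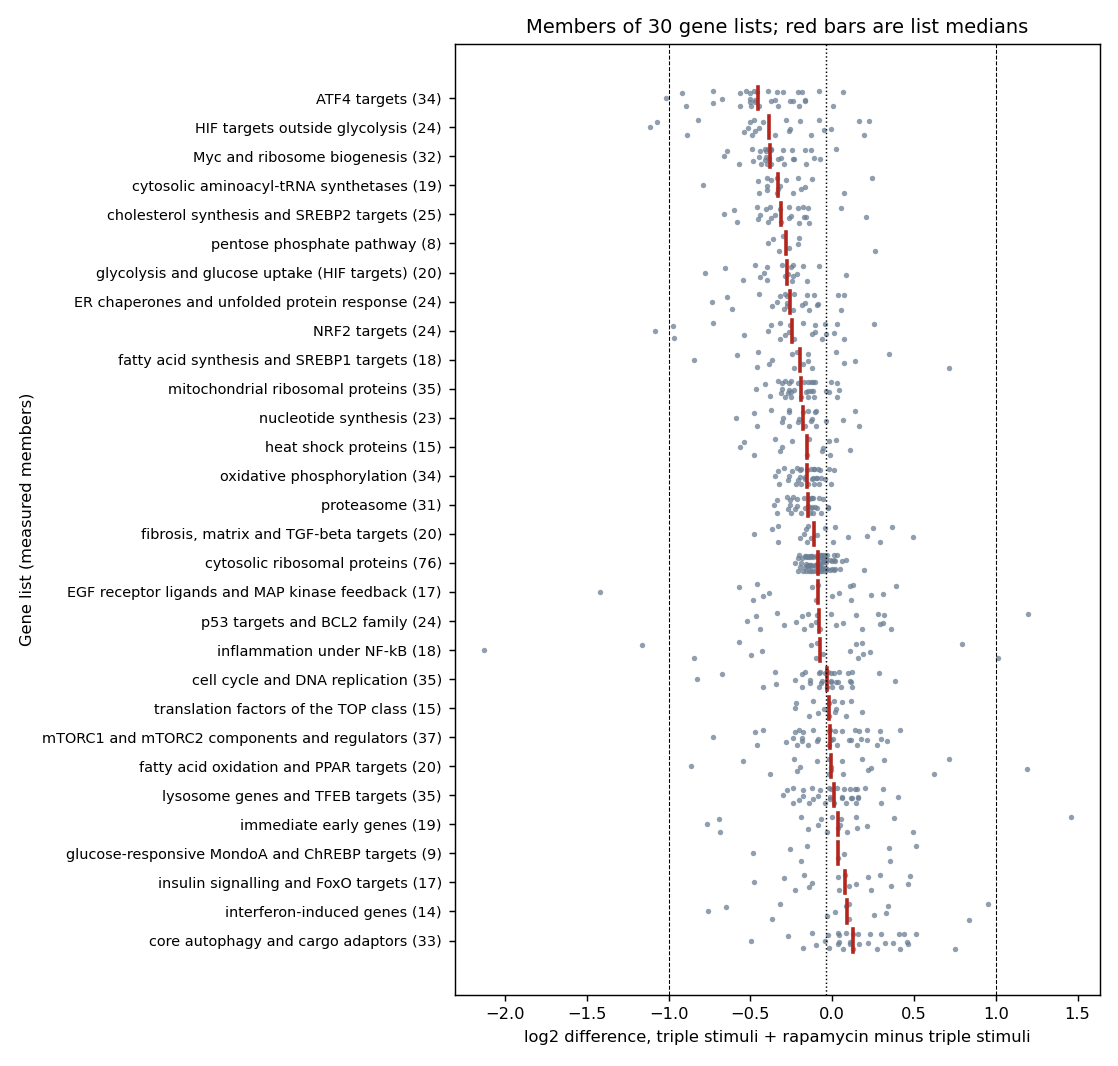
Each point is a measured member of 1 of 30 gene lists (number of measured members in brackets) and the horizontal axis its log2 difference, triple stimuli with rapamycin minus triple stimuli. Red bars are medians, the dotted line the median of all measured genes (-0.04) and dashed lines 2-fold. ATF4 targets have the most negative median, -0.45, and core autophagy genes the most positive, 0.13.

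The ATF4 targets, genes of the integrated stress response, had the most negative median of the 30 lists. Of 34 measured members 32 were below 0, with a median of -0.45 (-0.36 after quantile normalization), 6 were at least 1.5-fold lower and 1 at least 2-fold lower. Cth, which makes cysteine by transsulfuration, was at -0.36 with rapamycin and 0.56 without, and its other probe gave -1.22 beside -0.92. Psph, the last enzyme of serine synthesis, was at 4.66 with rapamycin and 5.55 without, and Ddit4, an inhibitor of mTORC1 also known as REDD1, at 6.78 and 7.51. The median level of the list was 4.18 with rapamycin, 4.48 without it, 3.75 in hypoxia and 3.14 in control, so the rapamycin array stayed nearer to triple stimuli than to control. The genes of level 4 to 6 as a whole had a median of -0.09.

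The enzymes that load amino acids onto tRNA, several of which are known ATF4 targets, had a median of -0.33 (-0.21 after quantile normalization, and -0.09 for all genes of level 4 to 6) with 17 of 19 below 0. Wars1, for tryptophan, was at 5.64 with rapamycin and 6.43 without (-0.79, and -0.75 from its other probe). Aars1, for alanine, had -0.45 and Cars1, for cysteine, -0.45, both with a spot in the first 64 rows, and Sars1, for serine, had -0.40. The only members above 0 were Qars1 and Rars1.

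Targets of the hypoxia-inducible factor HIF, which is stable at low oxygen, were lower with rapamycin in most cases. Outside glycolysis 21 of 24 measured targets were below 0, with a median of -0.39 (-0.30 after quantile normalization, and -0.04 for all genes of level 2 to 4), and 2 were at least 2-fold lower, Ero1a and Car12. Car12, a carbonic anhydrase of the cell surface, was at -1.74 with rapamycin and -0.67 without. Egln3, an oxygen sensor that marks HIF for breakdown, was at -0.29 with rapamycin and 0.60 without, and at 0.72 in hypoxia, while in control it was not well above background. Its other probe gave -1.35. Hilpda, which coats lipid droplets and inhibits lipolysis, was at 4.25 with rapamycin and 5.08 without, and its other probe gave -0.87.

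In glycolysis and glucose uptake 19 of 20 measured genes were below 0, with a median of -0.28 (-0.18 after quantile normalization), beside a median of -0.11 for all genes of level 6 to 8. Pfkfb3, whose product speeds the pathway's committed step, was at 0.51 with rapamycin and 1.29 without, 2.54 in hypoxia and 0.65 in control. Slc2a1, the glucose transporter GLUT1 with a spot in the first 64 rows, was at 5.01 with rapamycin and 5.66 without, Aldoc, an aldolase, at 2.79 and 3.33, and Hk2, a hexokinase, at 3.20 and 3.67. Against the hypoxia-to-control distance of the list, a median of 1.32, the difference with rapamycin was small. The genes of glycolysis remained high: their median level was 6.42 with rapamycin, 6.81 without, 7.01 in hypoxia and 5.38 in control.

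Genes that build ribosomes in the nucleolus were nearly all below 0. Of 32 measured members 31 were below 0, with a median of -0.38 (-0.31 after quantile normalization, and -0.04 for all genes of level 2 to 4), and the exception was Myc, the transcription factor that drives many of them, at 0.02. Rrp9, which processes the small subunit's RNA, was at 1.44 with rapamycin and 2.11 without, Rrp1b at 1.75 and 2.39, and Ppan, needed for the large subunit, at 3.70 and 4.27. Wdr12, of the complex that matures the large subunit, had -0.49 from a spot in the first 64 rows and -0.23 from its other probe. On the hypoxia array the median of this list was -0.33 below control, and the rapamycin median level of 3.47 lay between 3.75 in triple stimuli and 2.97 in hypoxia.

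The ribosomal protein genes themselves, whose translation depends on mTORC1, showed no comparable shift. Of 76 members 65 were below 0 (85.5%), beside 92.8% of all genes in the highest level band. Their median of -0.09 was above the -0.14 of that band, and it turned to 0.041 after quantile normalization. Rps13 had -0.23, Rps27a and Rps2 -0.21, Rpl6 -0.20 and the highest member 0.20. The translation factors of the same class had a median of -0.02 (0.092 after quantile normalization), with Gnb2l1 (also known as Rack1) at -0.23, Eef1g, an elongation factor subunit, at -0.22, Npm1, a nucleolar chaperone, at -0.14 from a spot in the first 64 rows and Pabpc1, the poly(A)-binding protein, at 0.18. Arrays of total RNA do not show which messages were on ribosomes.

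Lipid synthesis was lower with rapamycin for most enzymes. In cholesterol synthesis 23 of 25 measured genes were below 0, with a median of -0.31 (-0.28 after quantile normalization, and -0.04 for all genes of level 2 to 4). Lss, which closes the sterol ring, was at 1.68 with rapamycin and 2.35 without, and Sqle, squalene epoxidase, at 5.00 and 5.58. Acat2, which condenses acetyl-CoA, had -0.46. These genes were already lower in triple stimuli than in hypoxia or control: the median level of the list was 2.48 with rapamycin, 2.60 without, 3.41 in hypoxia and 3.32 in control.

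Among genes of fatty acid synthesis 13 of 18 were below 0, with a median of -0.20 (-0.14 after quantile normalization). Elovl6, which lengthens fatty acids, was at 0.58 with rapamycin and 1.42 without, and at 2.43 in control. Acaca, acetyl-CoA carboxylase 1, had -0.58 from a spot in the first 64 rows and -0.58 and -0.67 from its other probes, whereas Acacb, the form at the mitochondrion that holds back fatty acid oxidation, had 0.71 at a dim level. Acss2, which makes acetyl-CoA from acetate, had -0.46. The pentose phosphate pathway had 7 of 8 members below 0 and a median of -0.28, which became -0.18 after quantile normalization, beside -0.09 for all genes of level 4 to 6. Its first enzyme, G6pdx, had -0.39, and Rpia, Tkt and Taldo1, of its non-oxidative arm, had -0.36, -0.33 and -0.30.

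Nucleotide synthesis had 20 of 23 members below 0 and a median of -0.18 (-0.14 after quantile normalization, and -0.04 for all genes of level 2 to 4). Dhodh, which makes pyrimidines, had -0.59 from a spot in the first 64 rows and 0.02 from its other probe. Tk1, which salvages thymidine, was at 3.75 with rapamycin and 4.23 without. Gart, of purine synthesis, had -0.46 from a spot in the first 64 rows, and Mthfd1, which supplies folate carbon units, -0.38.

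Targets of NRF2, the factor of the oxidative stress response, were below 0 in 20 of 24 cases with a median of -0.25 (-0.13 after quantile normalization, and -0.09 for all genes of level 4 to 6). Hmox1, heme oxygenase 1, was at 6.38 with rapamycin and 7.35 without, 6.15 in hypoxia and 4.92 in control, and its other probe gave -1.03 beside -0.96. Osgin1, an inhibitor of growth induced by oxidised lipids, was at 1.97 with rapamycin and 2.95 without. Slc7a11, the cystine importer that ATF4 also controls, was at -1.40 with rapamycin and -0.67 without, from a spot in the first 64 rows. The difference was thus uneven within the list, and Gsr and Mt2 were among the members near 0.

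Of the ER chaperones and genes of the unfolded protein response 21 of 24 were below 0, with a median of -0.26 (-0.17 after quantile normalization, and -0.09 for all genes of level 4 to 6). Hspa5, the chaperone BiP, was at 7.20 with rapamycin and 7.82 without from a spot in the first 64 rows, Sdf2l1, one of its cofactors, at 1.17 and 1.82, Hyou1, a large chaperone, at -2.36 and -1.62, and Atf6, a sensor of the response, at -0.49 and -0.04. Heat shock proteins had 13 of 15 below 0 and a median of -0.16 (-0.10 after quantile normalization, and -0.11 for all genes of level 6 to 8), with Cryab, a small heat shock protein, at -0.56 and the mitochondrial chaperones Hspa9 at -0.54, Hspd1 at -0.48 and Hspe1 at -0.35. The proteasome had 31 of 31 below 0, at a median of -0.15 that became -0.06 after quantile normalization, oxidative phosphorylation 33 of 34 at -0.15 that became -0.04, and mitochondrial ribosomal proteins 32 of 35 at -0.19 that became -0.11. All genes of level 4 to 6, where the proteasome and oxidative phosphorylation lists lie, had a median of -0.09, and those of level 2 to 4, with the mitochondrial ribosomal proteins, -0.04. The largest differences were -0.36 for Psmd14, -0.34 for Psmd13, -0.34 for Psmb5 and -0.27 for Psmb7 in the proteasome, the last from a spot in the first 64 rows. In oxidative phosphorylation they were -0.35 for Cycs, cytochrome c, -0.33 for Cyc1, and, from spots in the first 64 rows, -0.33 for Uqcrc1 and -0.29 for Ndufb8. Among mitochondrial ribosomal proteins they were -0.47 for Mrps28, -0.41 for Mrps18a, -0.38 for Mrpl12 and -0.33 for Mrpl1, so none of these 12 genes was 1.5-fold apart.

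Core autophagy genes had the most positive median of the 30 lists, 0.13 (0.18 after quantile normalization), with 25 of 33 measured members above 0 and 1 at least 1.5-fold higher. Calcoco1, a receptor for selective autophagy, was at 0.18 with rapamycin and -0.57 without, -0.52 in hypoxia and -0.75 in control. Rb1cc1, the scaffold of the initiating kinase complex, was at 0.38 with rapamycin and -0.13 without, with 0.02 from its other probe, and Nbr1, a cargo receptor, at 0.81 and 0.34. Sqstm1, the cargo receptor p62 and a target of NRF2, went the other way, at 4.30 with rapamycin and 4.80 without from a spot in the first 64 rows, and its other probe gave -0.14. Lysosome genes and targets of TFEB, a factor that mTORC1 holds in the cytoplasm, had a median of 0.01. After quantile normalization it was 0.088, and all genes of level 2 to 4 had a median of -0.04. Of the 35 measured members 18 were above 0 and none was at least 1.5-fold apart, within a range of -0.30 for Psap to 0.40 for Tpp1. Scarb2, a membrane protein of the lysosome, had 0.31 and Mcoln1, its calcium channel, 0.30.

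Genes of insulin signalling and FoxO targets had a median of 0.08 with 11 of 17 above 0. Irs2, an adaptor of the insulin receptor, was at 3.29 with rapamycin and 2.83 without, Ccng2, a FoxO target that slows the cell cycle, at 0.60 and 0.13, and Pik3ip1, an inhibitor of PI3 kinase, at -0.46 and -0.82. Foxo3 itself had -0.48. All 4 differences lay below 1.5-fold.

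The cell cycle list had a median of -0.03 (0.041 after quantile normalization): 23 of its 35 members were below 0. The 2 that were at least 1.5-fold lower were Ccnd1 and Ccnd2, D-type cyclins, which couple growth signals to the cycle. Ccnd1 was at 2.73 with rapamycin and 3.40 without, 2.68 in hypoxia and 3.53 in control. Ccnd2 was dim, at -2.68 with rapamycin and -1.85 without. The lowest levels well above background on these arrays were -3.27 and -3.08. Mybl2, a factor of dividing cells, had -0.42 and Kif11, a motor of the spindle, 0.38 from a spot in the first 64 rows. The proliferation markers Mki67 and Top2a, chosen here after their values were seen, had 0.12 and 0.10, the second from a spot in the first 64 rows.

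Immediate early genes were split, with a median of 0.03 and 11 of 19 above 0. Klf2 was 2-fold higher as described, while Fosl1, an AP-1 subunit, was at 2.76 with rapamycin and 3.53 without, Ier3 at 4.73 and 5.42, and Klf4 at 1.10 and 1.79. Of EGF receptor ligands and MAP kinase feedback genes 10 of 17 were below 0, at a median of -0.08, which came to -0.00038 over bright members: beside Areg, the phosphatases Dusp5, Dusp4 and Dusp14 had -0.57, -0.49 and -0.46. Among the 18 measured inflammation genes, at a median of -0.08, Cxcl1 and Cxcl2 were at least 2-fold lower, Cxcl5, a related chemokine, had -0.85, and Il11, a cytokine of the IL-6 family, was 2.01-fold higher at dim levels of -1.31 with rapamycin and -2.32 without. The lists of signalling genes thus held some of the largest single differences and medians near 0.

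The other lists had medians near those of all genes. Interferon-induced genes had 9 of 14 above 0 and a median of 0.09, with Gbp2 at 0.95 from a spot in the first 64 rows and Ifit3 at 0.84 against Isg20 at -0.76 and Oasl1 at -0.65. Among p53 targets and the BCL2 family, at -0.08, Bmf, which promotes cell death, was 2.29-fold higher, at -1.49 with rapamycin and -2.69 without, and nearer to its control level of -1.22. Gadd45a and Plk3, with spots in the first 64 rows, had -0.52 and -0.47, and Gadd45g -0.44; all 3 are stress-induced genes. In fatty acid oxidation, at -0.01, the neighbouring thioesterases Acot1 and Acot2 had 1.19 and -0.87, Ucp3, a mitochondrial carrier, 0.72 and Cpt1a, which admits fatty acids into mitochondria, 0.62, all at dim levels. Acot1 and Acot2 are near-identical genes, so their probes may share RNA. Fibrosis and matrix genes had a median of -0.11, which came to -0.041 with flagged spots left out and their probes kept, with Ccn2, a matricellular growth factor, at 0.49, Smad7, an inhibitor of TGF-beta signalling, at 0.37 and Timp1, an inhibitor of matrix proteases, at -0.37. Targets of MondoA and ChREBP had 0.03, with Txnip, an inhibitor of glucose uptake, at 3.68 with rapamycin and 3.33 without, Mlxip, the gene of MondoA, at 0.51, Arrdc3, an arrestin, at -0.49 and Tkfc, which metabolises fructose, at 0.35.

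The hypoxia, control and single-stimulus arrays share no sample with the rapamycin comparison and show on which other arrays the genes that were lower with the drug were high. Array A is the array whose scanner file is labelled high glucose and whose values stand in the value table under high FFAs, and array B is the reverse, so neither is given a stimulus here. Of the 135 bright genes at least 1.5-fold lower with rapamycin, 24 were at least 2-fold higher in hypoxia than in control (17.8%) and 25 on array A than in control (18.5%). Over all bright genes these shares were 2.15% and 1.22%. Of the 64 genes at least 1.5-fold higher with rapamycin the shares were 4.69% and 3.12%. On array B 0 of the 135 were 2-fold higher than in control, where 0.066% of all bright genes were. Of the same 135 genes 5 were at least 2-fold lower in hypoxia than in control (3.7%, against 0.179% of all bright genes), 1 on array A (0.741%, against 0.207%) and 1 on array B (0.741%, against 0.0472%). The 135 had a median of -0.067 for hypoxia minus control, beside -0.045 for all bright genes, and of 0.22 for array A minus control, beside -0.0086. Genes higher in hypoxia were thus more frequent among the 135, but as a group the 135 were not higher in hypoxia. Of the 111 with a symbol, 21 were at least 2-fold higher in hypoxia than in control (18.9%, against 1.38% of all bright genes with a symbol). Only 1 was at least 2-fold lower (0.901%, against 0.146%), so most of the 5 lower genes had no symbol. The median of the 111 for hypoxia minus control was -0.023, beside -0.068.

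The 24 shared genes were 10.5% of the 228 higher in hypoxia and included Aldh1l2, Ddit4, Egln3, Ero1a, Hilpda, Hmox1, Ier3, Isg20, Klf4, Pfkfb3, Selenbp1 and Slc2a1. The 25 shared genes were 19.4% of the 129 higher on array A and included Aldh1l2, Areg, Cdsn, Clec4d, Cth, Gsta2, Hilpda, Hmox1, Klf4 and Stmn4. Aldh1l2, Hilpda, Hmox1 and Klf4 were in both. The HIF targets Egln3, Ero1a, Pfkfb3 and Slc2a1 stood in the hypoxia group only, and Areg, Cdsn and Cth in the array A group only. The split was not clean: the HIF target Hilpda stood in both groups, and the ATF4 target Ddit4 in the hypoxia group.

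Genes were also picked on those arrays and read in the rapamycin comparison. Only genes with a symbol are counted here, because 114 of the 228 genes higher in hypoxia carry clone, probe or predicted-model names that may be copies of the same abundant genes. Of the 114 bright genes with a symbol that were at least 2-fold higher in hypoxia than in control, 100 were below 0 with rapamycin (87.7%), at a median of -0.35, and 21 were at least 1.5-fold lower. Of the 116 higher on array A than in control, 92 were below 0 (79.3%), at a median of -0.28, and 23 were at least 1.5-fold lower. All 8232 bright genes with a symbol had a median of -0.04 with 57.2% below 0. Of the 19 bright genes at least 2-fold lower in hypoxia than in control, 5 were at least 1.5-fold lower with rapamycin (26.3%), and of the 12 of these with a symbol 1 was (8.33%).

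**Figure D5:**
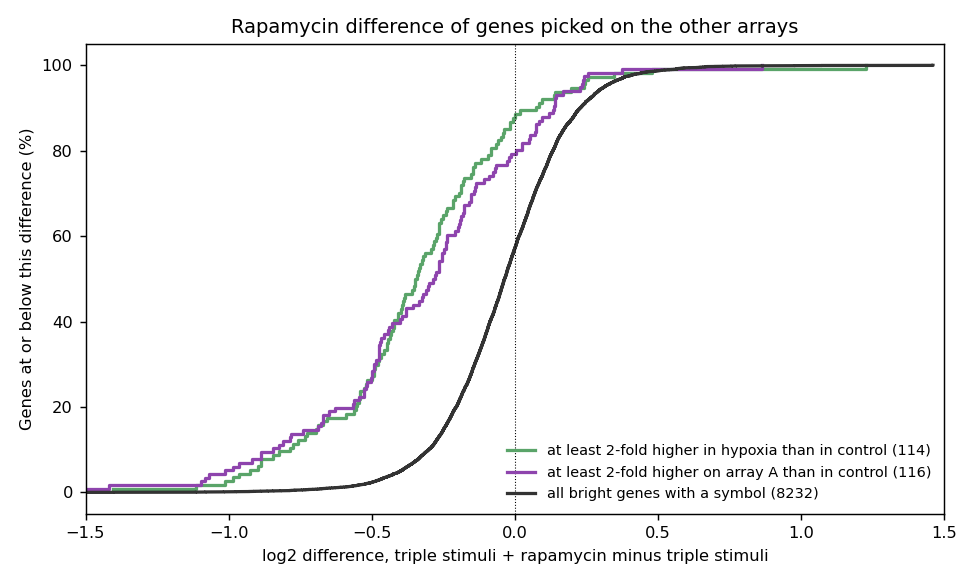
Cumulative percentage of bright genes with a symbol (vertical axis) at or below a log2 difference, triple stimuli with rapamycin minus triple stimuli (horizontal axis), for 114 genes at least 2-fold higher in hypoxia than in control (green), 116 at least 2-fold higher on array A than in control (purple) and all 8232 (black). Both picked groups lie to the left, with medians of -0.35 and -0.28 against -0.04.

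By their medians, the picked genes stayed above control under rapamycin. Single members did not all do so: Pfkfb3, picked in hypoxia, and Gsta2, picked on array A, were below their control levels. The median level of the 114 genes higher in hypoxia was 2.57 with rapamycin and 2.87 without, and 1.36 in control. That of the 116 genes higher on array A was 2.75 with rapamycin and 3.13 without, and 1.52 in control. Since the control array was used to pick these genes, their distance to it is a description only.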

How the data were processed

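The members and gene lists were chosen with earlier results of these data known. Each condition had 1 Agilent array (1-colour, Cy3), all 6 on 1 slide, per the file headers. Per the submitters' processing notes the scans were read by Agilent Feature Extraction 10.7.3.1. Per the file headers, this software corrects the background and gives spots without signal a surrogate value. The scanner files the authors deposited hold linear intensities, not scaled between arrays, and flags for background, outliers and saturation. Their deposited table of values is a ratio of that intensity to 1 constant per array; its medians were 0.0561 with rapamycin and 0.0544 for triple stimuli, and it was used as an alternative only.

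From the intensities, log2 of the processed signal minus log2 of the array's 75th percentile over non-control spots was averaged for each probe. Of 55681 probes, 323 with an outlier flag on any array were left out. A gene was represented by its brightest probe over 6 arrays, and 22109 of the 34518 gene names matched RefSeq. A gene was called at a 2-fold difference (1.5-fold where stated). The calculation was tested on simulated data whose differences held neither the drift with signal nor the effect of position. That test checked the arithmetic and does not bear on the calls made here. Probe positions are those in the files (mm9). No annotation of that build was used here, so exons are not named. Both arrays lay in the same row of the slide as hypoxia, and control in the other row, so in a comparison with control the row cannot be told apart from oxygen.

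Named were the 15 highest and 15 lowest bright differences of at least 2-fold with a gene symbol (6 and 14 qualified), 5 per direction among dimmer genes with spots above row 64, up to 3 bounds per direction, the 4 members per list with the largest absolute difference, and Fkbp1a, Mtor and Rptor. Genes outside this rule (Myc, Qars1, Rars1, Gsr, Mt2, Mki67, Top2a, Atf3, Pycr1, cell type markers and genes with flagged probes) were named after their values were seen. Of the members the rule names in the pathway lists, 2 are not reported here, and cell type markers are given as counts with examples. Alternatives were normexp background correction (limma 3.58.1, R 4.3.3, offset 50), quantile normalization, median centring, the value table, genes above background on at least 1 array, the median over probes, spot rows above 64, the 1.5-fold threshold and bright members only. Keeping probes with their flagged spots left out was added after seeing the data.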

Additional observations from a re-analysis of the deposited data

How the results depend on the processing

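The number of arrays, 1 per condition, limits every value, and signal near background limits the dim genes. No paired analysis was possible because each condition has 1 array. The counts of genes at least 2-fold higher and lower, 58 and 88 over all measured genes and 8 and 14 over bright genes, became 21 and 32 over all and 4 and 8 over bright genes with normexp, whose offset raises low signals. They became 335 and 368 over all genes when 1 array above background sufficed, 25 and 47 over all and 4 higher over bright genes in spot rows above 64, 5 higher over bright genes with the median over probes, and 301 and 393 over all and 64 and 135 over bright genes at 1.5-fold. Quantile normalization, median centring and the value table left all 4 counts within 1.5 times. The median turned to 0.041 for cytosolic ribosomal proteins and to 0.015 for p53 targets with quantile normalization, to 0.026 for inflammation genes in rows above 64 and to -0.010 for interferon-induced genes over bright members, and Mettl27 had -0.069 as the median over its probes. The mTOR, lysosome, translation factor, cell cycle and fatty acid oxidation medians, all near 0, also crossed it under at least 1 alternative. The EGF receptor and MAP kinase median came to -0.00038 over bright members, and the fibrosis median to -0.041 with flagged spots left out. Over the alternatives the ATF4 list kept a median between -0.46 and -0.36. Of the 34 named genes beyond 2-fold that were not bounds and could be recomputed, 14 remained beyond it with normexp, 29 with the median over probes and 33 with quantile normalization. Beyond the construction stated, the cause of these moves was not tested.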

Other observations

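Genes well above background on 1 array only give bounds, set against the higher of the dim probe's own signal and the lowest signal well above background on its array. Rtl3, a retrotransposon-derived gene whose spot is in row 94, was at least 12.0-fold lower with rapamycin, where it was not well above background. Serpina10, which encodes a protease inhibitor of clotting, was at least 10.9-fold lower and Myo7b, a myosin of the brush border, at least 10.5-fold lower. Rnft2, Ror1 and Olfr1303 were at least 20.2-fold, 19.0-fold and 14.0-fold higher with rapamycin and not well above background without it. All of these but Rtl3 have a spot in the first 64 rows, where dim genes were called most often. Rtl3, Myo7b, Ror1 and Olfr1303 were each well above background on only 1 of the 6 arrays, from 1 spot.

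Probes with a flagged spot were left out of the results, and 10 genes of the lists had unflagged spots to read. Csf2, the growth factor GM-CSF, was at 0.24 with rapamycin and 1.49 without, a difference of -1.25, the same direction as Cxcl1 and Cxcl2. Wdr74, a ribosome biogenesis factor, had -0.54 and Gsta4, a glutathione transferase, -0.56, while Ccl2, a chemokine for monocytes, was at 4.19 with rapamycin and 4.18 without. Fos, the AP-1 subunit, had 0.07. Inflammatory genes thus did not move as 1 group: Csf2, Cxcl1 and Cxcl2 were lower, and Ccl2 differed by 0.0027.

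Of the markers of other cells, Cd68, a lysosomal protein of macrophages with a spot in the first 64 rows, was at -0.27 with rapamycin and 0.52 without, and Lck, a T cell kinase with a spot there too, had -0.65. Their part in the results was not tested. Ptprc, which macrophages and T cells share, was not well above background on either array.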
